A study of Mus musculus with 6 samples.

Results

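The transcripts of 10 killer lectin-like and natural cytotoxicity receptor genes were followed in whole B16-F10 tumors: *Ncr1*, *Klrb1c*, *Klrk1*, *Klrd1*, *Klrc1*, *Klrc2*, *Klre1*, *Klrg1*, *Klra7* and *Klri2*. They were taken by gene symbol from the 21358 entries of the deposited expression table, and all 10 were found and reached the level needed for testing. B16-F10 is a transplantable melanoma line of C57BL/6 origin, grown here under the skin of C57/BL6 hosts. All hosts were first irradiated over the whole body to deplete their lymphocytes and then, with tumors of at least 150 mm3, received pmel-1 T cells by adoptive cell transfer (ACT). These are splenocytes activated in culture with gp100 peptide, whose CD8 T cells carry a transgenic T cell receptor for the melanocyte antigen gp100. ACT was supported in 1 group by IL-2, injected on consecutive days of each cycle, and in the other by NKTR-214, an IL-2 coupled to releasable polyethylene glycol chains and injected once per cycle. Tumors of 3 mice per group were taken at day 12 after treatment, and each gave 1 library. The hosts were female and 6 to 8 weeks old. The transferred cells and the lymphocytes that return in an irradiated host carry the same receptor genes, so the libraries do not tell donor from host transcripts.

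Natural killer (NK) cells read the surface of other cells through pairs of activating and inhibitory receptors. Many of these are C-type lectin-like proteins whose genes lie side by side in the NK gene complex, and CD8 T cells acquire part of the same set once they have been activated. The receptors known on both cell types are NKG2D (*Klrk1*), CD94 (*Klrd1*) with its partners NKG2A (*Klrc1*) and NKG2C (*Klrc2*), KLRE1 (*Klre1*) and KLRG1 (*Klrg1*), and these 6 genes are called shared below. The other 4 genes are mainly known from NK cells and are called NK-restricted: NKp46 (*Ncr1*), an immunoglobulin-like receptor and the most specific NK marker of the set, NK1.1 (*Klrb1c*), Ly49G (*Klra7*) and KLRI2 (*Klri2*). The restriction is not absolute, since NK1.1 also marks NKT cells and Ly49 receptors occur on some T cells. In GENCODE vM21, on the GRCm38 build that the files use, 9 of the genes lie on chromosome 6 and *Ncr1* lies on chromosome 7 (4337724 to 4345164). Without *Klrg1* (122270596 to 122282882), the chromosome 6 genes span 1.455 megabases, from *Klrb1c* (128778485 to 128789215) to *Klra7* (130218605 to 130233322).

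Melanocyte genes were abundant in every library, with 605 to 1564 FPKM (reads per exon kilobase, scaled to library size) for *Pmel*, so the tissue carried the transcripts of its label. Part of the low FPKM values, 24.6 to 28.8% per library, lay within 0.02 of a whole number of steps, and the size of these steps implies 20900000 to 24700000 reads per library, an estimate that rests on those values and was lowest in ACT + IL-2 replicate 3. Groups were compared with limma on log2(FPKM + 1) over 14172 genes with a mean of at least 0.1 FPKM, and called at a Benjamini-Hochberg adjusted p under 0.05. Fold changes on this scale understate those of low genes, so ratios of mean FPKM are given as well. *Klrc2* and *Klri2* reached the minimum only through ACT + NKTR-214, with ACT + IL-2 means of 0.0897 and 0.0743 FPKM.

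Of the 10 receptor genes, 9 were higher in ACT + NKTR-214 tumors, 0 were lower (also at an unadjusted p under 0.05), and *Ncr1* did not pass the test (limma, Benjamini-Hochberg adjusted). The 9 genes were also those in which the lowest ACT + NKTR-214 tumor exceeded the highest ACT + IL-2 tumor. Over all genes tested, 20.7% were called higher (2940 genes), 8.28% were called lower (1173 genes) and 27.1% were higher without overlap. The balance over all genes depended on the scaling, with 3259 called higher and 3709 lower after scaling to the 75th percentile and 2669 and 4549 after quantile normalization, which moved the median of all genes from 0.05 to -0.10, while 9 receptor genes were called higher under both. The mean FPKM of the 6 shared receptors rose 10.8- to 21.2-fold, and that of the 3 NK-restricted receptors that were called rose 5.21- to 8.84-fold. The folds of 3 shared genes depended on ACT + IL-2 replicate 1, without which they were 68.2 in place of 21.2 for *Klrc2*, 39.0 in place of 17.9 for *Klre1* and 19.3 in place of 11.4 for *Klrg1*. That of *Klrc2*, whose ACT + IL-2 values correspond to as few as 4, 1 and 0 reads, was 14.1 without ACT + IL-2 replicate 3. The median log2 fold change was 2.73 for the shared receptors and 0.73 for the NK-restricted ones, against 0.05 for all genes tested. These medians were 3.59 and 1.81 with a pseudocount of 0.1, and the second was 1.39 over the 2 NK-restricted genes left at a minimum mean of 1 FPKM. Those 2, *Klrb1c* and *Klra7*, reach that minimum only through ACT + NKTR-214, while *Ncr1*, which was not called, drops out with *Klri2*. The value of 1.39 is thus raised by the filter and is no like value for the class. When limma shared no variance across genes, 0 receptor genes passed (adjusted p = 0.0529 to 0.0931 for the 9 genes), although 9 had an unadjusted p under 0.05. RNA of a whole tumor cannot tell more cells of a type from more transcript per cell, and this holds for every difference below.

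**Figure D1:**
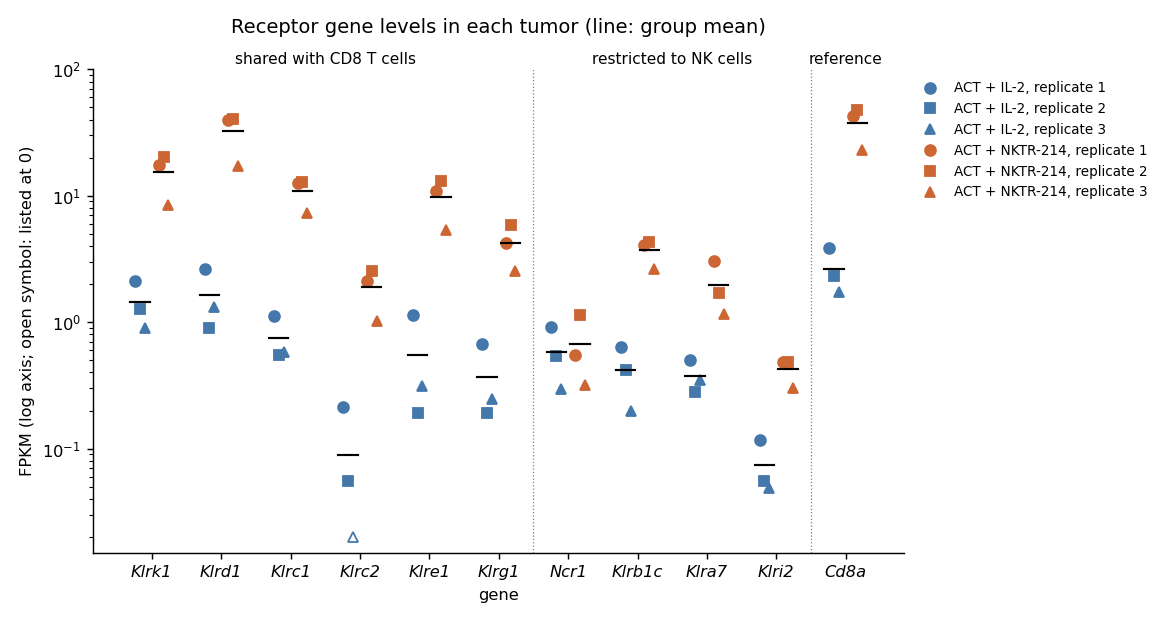
FPKM of each receptor gene and of *Cd8a* in each of the 6 tumors (log axis; color marks the group, symbol the replicate, and the line the mean of 3 tumors). The groups are apart for every gene shown except *Ncr1*, whose tumors lie between 0.294 and 1.15 FPKM, and ACT + NKTR-214 replicate 3 is the lowest tumor of its group throughout.

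Of the shared receptors, NKG2D is activating and needs no partner of the lectin-like family. NKG2D (*Klrk1*, chromosome 6, 129610323 to 129623864) binds stress-induced relatives of MHC class I and costimulates CD8 T cells. The FPKM of *Klrk1* was 2.13, 1.27 and 0.901 in the IL-2 supported tumors, given here and below in replicate order, and 17.6, 20.4 and 8.45 in those supported by NKTR-214. All tumors of the second group were above all of the first. The means were 1.43 ± 0.632 and 15.5 ± 6.24 FPKM (SD, n = 3 each), and limma gave a log2 fold change of 2.71 ± 0.26 (SE) with an adjusted p of 1.5e-06.

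CD94 and the NKG2 proteins form the receptor for the nonclassical MHC molecule Qa-1, and in this complex NKG2A inhibits and NKG2C activates. *Klrd1*, which encodes the common CD94 chain (chromosome 6, 129591782 to 129598775), had 2.65, 0.904 and 1.32 FPKM in the ACT + IL-2 tumors and 39.4, 40.6 and 17.05 FPKM in the ACT + NKTR-214 tumors. The lowest value of the second group was above the highest of the first. *Klrd1* was the highest of the 10 receptor genes by mean FPKM in both groups and had the largest log2 fold change among them, 3.63 ± 0.28 (SE) with an adjusted p of 2.37e-07 in limma. *Klrc1* (129666015 to 129678973) had 1.12, 0.550 and 0.578 FPKM against 12.7, 12.8 and 7.30 FPKM. No tumor of one group reached the range of the other, and the log2 fold change was 2.75 ± 0.20 (SE; limma, adjusted p = 1.36e-07). The activating partner *Klrc2* (129647496 to 129660689) was near 0 in ACT + IL-2, at 0.213 and 0.0556 FPKM in replicates 1 and 2 and listed at 0 in replicate 3, where 3 reads would be worth up to 0.183 FPKM. With NKTR-214 its values were 2.11, 2.56 and 1.02 FPKM, and the log2 fold change of *Klrc2* was 1.38 ± 0.17 (SE; limma, adjusted p = 1.48e-05).

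The inhibitory partner had the higher FPKM of the pair in all 6 tumors. The ratio of *Klrc1* to *Klrc2* FPKM was 5.25 and 9.90 in the IL-2 tumors with a value for both and 5.99, 5.02 and 7.17 in the NKTR-214 tumors, so the groups overlapped. The summed FPKM of both partners was 0.438 to 0.670 of that of *Klrd1* in ACT + IL-2 and 0.375 to 0.488 of it in ACT + NKTR-214, again with overlap. The split between *Klrc1* and *Klrc2* is uncertain, because 38.6% of the 50-base windows of *Klrc1* transcripts also occur in other genes, *Klrc2* above all, and the handling of such reads is not stated.

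*Klre1* and *Klrg1* completed the shared set. KLRE1 is a lectin-like receptor without signaling motifs of its own that pairs with KLRI1 or KLRI2. *Klre1* (129577905 to 129585827) had 1.14, 0.191 and 0.313 FPKM with IL-2 and 10.9, 13.1 and 5.37 FPKM with NKTR-214, and its log2 fold change was 2.77 ± 0.26 (SE; limma, adjusted p = 1.4e-06). ACT + IL-2 replicate 1 stood above the other tumors of its group in *Klre1*, as it did in all 10 receptor genes. *Klrg1*, an inhibitory receptor for cadherins that marks short-lived effector T cells, had 0.676, 0.192 and 0.245 FPKM against 4.24, 5.83 and 2.56 FPKM. Its groups were also apart, with a log2 fold change of 1.89 ± 0.20 (SE; limma, adjusted p = 4.21e-06). Within ACT + NKTR-214 the order of the tumors was as uniform, with replicate 3 the lowest in 10 of 10 genes and replicate 2 the highest in 8. ACT + NKTR-214 replicate 3 was also the lowest of its group in *Cd8a* (23.01 FPKM, against 42.4 and 47.3 FPKM).

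Of the 4 NK-restricted receptors, 3 were higher without overlap and *Ncr1* was not. *Ncr1*, which encodes the activating receptor NKp46, had 0.915, 0.536 and 0.294 FPKM with IL-2 and 0.553, 1.15 and 0.316 FPKM with NKTR-214. The ranges overlapped over most of their length, and the means were 0.582 ± 0.313 and 0.672 ± 0.428 FPKM (SD, n = 3 each). In limma the log2 fold change of *Ncr1* was 0.07, with a 95% interval from -0.28 to 0.42 and an adjusted p of 0.799. Its sign changed when ACT + IL-2 replicate 3 or ACT + NKTR-214 replicate 2 was left out (-0.07 and -0.13) and with quantile normalization (-0.16). The values of *Ncr1* correspond to as few as 32, 18 and 9 reads in ACT + IL-2 and 20, 41 and 11 reads in ACT + NKTR-214. The parts of counting error and of the spread between tumors in these values were not separated. With a pseudocount of 0.1 FPKM, which compresses low genes less, the log2 fold change was 0.14 for *Ncr1* and 1.59 (*Klri2*) to 4.26 (*Klrd1*) for the other 9 receptors. No 50-base window of the *Ncr1* transcripts occurs in another annotated gene (0.0%).

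*Klrb1c*, by contrast, had 0.637, 0.415 and 0.200 FPKM with IL-2 and 4.10, 4.34 and 2.64 FPKM with NKTR-214, without overlap. The product, NK1.1, is an activating receptor of the NKR-P1 family and the usual surface marker of NK cells in this strain. The log2 fold change of *Klrb1c* was 1.72 ± 0.16 (SE; limma, adjusted p = 1.49e-06), while 13.9% of its exon bases are shared with the annotated gene *Gm44511*. *Klra7*, which encodes an inhibitory receptor for MHC class I, had 0.506, 0.281 and 0.346 FPKM against 3.03, 1.72 and 1.15 FPKM. The groups did not overlap, and the log2 fold change was 1.06 ± 0.18 (SE; limma, adjusted p = 0.00027). The Ly49 genes are close copies, and 12.3% of the 50-base windows of *Klra7* occur elsewhere, so its level is uncertain to that extent. *Klri2* (129729041 to 129740484), the lowest of the 10 by mean FPKM in both groups, had 0.118, 0.0559 and 0.0489 FPKM against 0.487, 0.483 and 0.302 FPKM, which correspond to as few as 11, 5 and 4 reads against 47, 46 and 28. The log2 fold change of *Klri2* was 0.40 ± 0.09 (SE; limma, adjusted p = 0.0028), and its mean FPKM rose 5.71-fold.

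**Figure D2:**
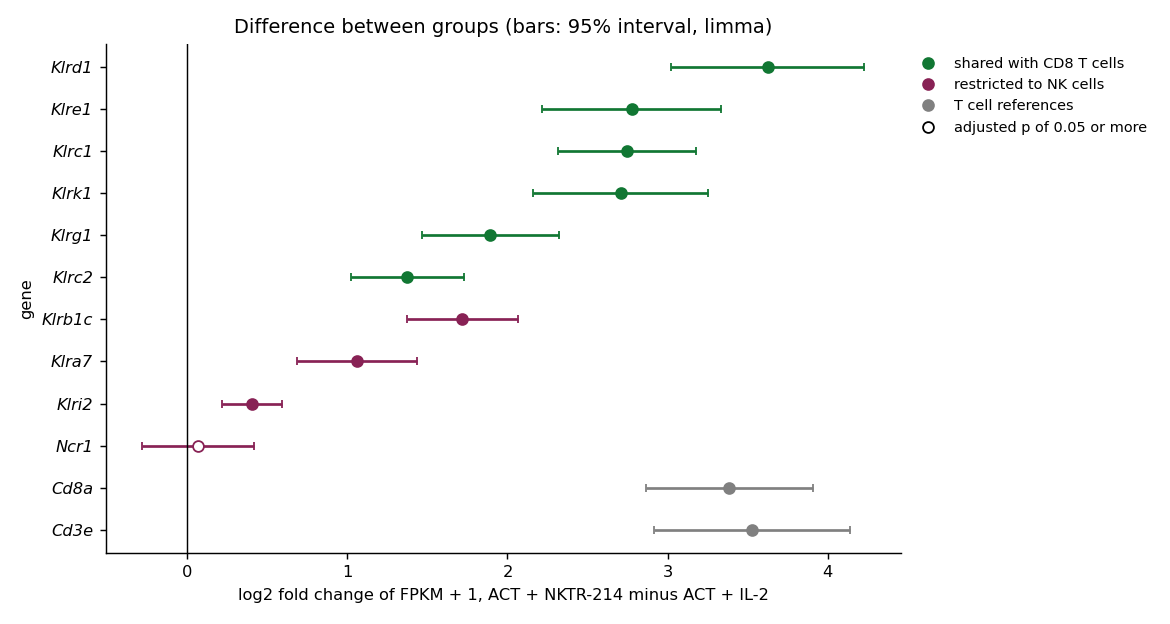
Log2 fold change of FPKM + 1 (ACT + NKTR-214 minus ACT + IL-2) of the receptor genes and of *Cd8a* and *Cd3e*, with 95% intervals from limma over 3 tumors per group. The interval of *Ncr1*, from -0.28 to 0.42, includes 0, and those of the other genes do not.

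The promoters of the receptors that did and did not part the groups are shown so that the sequences can be read beside the values. Windows from 250 bases before to 50 bases after the annotated start, from RefSeq on GRCm38.p6, were at hand for 7 of the 10 genes. They were searched on both strands for the RUNX core TGTGGT, a T-box core GGTGTGA and the STAT pattern TTCNNNGAA, motifs of factors that act in lymphocytes and in IL-2 signaling. No match overlapped another in these windows. Capitals mark the matches, all of them to the RUNX letters in the 4 windows below.
Ncr1, chr7:4337465-4337764, plus strand: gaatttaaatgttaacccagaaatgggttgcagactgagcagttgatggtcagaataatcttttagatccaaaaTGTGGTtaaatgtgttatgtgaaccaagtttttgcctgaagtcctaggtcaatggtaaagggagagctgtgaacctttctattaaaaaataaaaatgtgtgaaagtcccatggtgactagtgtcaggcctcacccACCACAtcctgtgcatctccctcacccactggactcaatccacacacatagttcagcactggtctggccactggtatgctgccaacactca
Klrb1c, chr6:128788592-128788891, minus strand: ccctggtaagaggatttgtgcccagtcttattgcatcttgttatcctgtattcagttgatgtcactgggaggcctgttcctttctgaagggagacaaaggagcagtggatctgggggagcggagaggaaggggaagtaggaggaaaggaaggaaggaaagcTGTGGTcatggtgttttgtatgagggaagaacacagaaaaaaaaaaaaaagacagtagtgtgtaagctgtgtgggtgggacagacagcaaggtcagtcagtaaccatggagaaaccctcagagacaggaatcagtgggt
Klrk1, chr6:129623815-129624114, minus strand: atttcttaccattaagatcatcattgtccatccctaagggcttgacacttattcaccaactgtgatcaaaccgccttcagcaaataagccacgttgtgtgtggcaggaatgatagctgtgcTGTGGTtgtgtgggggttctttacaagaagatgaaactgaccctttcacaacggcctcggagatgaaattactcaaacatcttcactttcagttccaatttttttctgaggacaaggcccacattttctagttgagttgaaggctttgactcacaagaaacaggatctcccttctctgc
Klrc1, chr6:129678924-129679223, minus strand: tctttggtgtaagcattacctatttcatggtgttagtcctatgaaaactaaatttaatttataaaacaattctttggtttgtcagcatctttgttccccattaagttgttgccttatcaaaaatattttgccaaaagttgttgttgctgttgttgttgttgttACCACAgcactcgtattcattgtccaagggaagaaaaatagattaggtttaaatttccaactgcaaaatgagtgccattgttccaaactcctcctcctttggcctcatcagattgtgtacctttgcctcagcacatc

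The RUNX letters occur in 16.8% of the 32851 promoter windows of the same length, the T-box letters in 3.98% and the STAT pattern in 8.3%. In the promoter of *Ncr1* the RUNX letters begin 176 and 41 bases before the start, and those of *Klrb1c*, *Klrk1* and *Klrc1* hold them once each, 89, 129 and 87 bases before it. At least 1 window of 6 of the 7 genes held them, while the windows of *Klra7* and 1 of *Klre1* did not. This count by gene is not like the share by window above, since some genes have more than 1 window. The STAT pattern was met only in a window of *Klra7*, and the T-box letters in none of the windows of these genes. A match is a string of letters and not a bound site.

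To set the classes against each other, each receptor was divided, within each tumor, by *Ncr1* and by *Cd8a*, the gene of the CD8 coreceptor. The log2 ratios (pseudocount of 0.1 FPKM) were compared. Scaling between libraries cancels in them only in part, because the pseudocount exceeds some values of *Klrc2* and *Klri2*. With 3 against 3 tumors an exact two-sided permutation test cannot give a p below 0.1. The ratios with an exact p = 0.1 had an adjusted p of 0.136 over the 19 ratios compared. *Cd8a* itself rose from 2.65 ± 1.12 to 37.6 ± 12.8 FPKM (SD, n = 3 each), 14.2-fold by the means. All 9 ratios to *Ncr1* were higher in each ACT + NKTR-214 tumor than in any ACT + IL-2 tumor (exact permutation p = 0.1 each). They share the values of *Ncr1* and so are not independent of each other. As *Ncr1* was the only receptor gene not called, these ratios restate the differences given above. The rise in log2 ratio was 3.12 to 4.12 for the 6 shared receptors, 2.80 for *Klrb1c*, 1.90 for *Klra7* and 1.45 for *Klri2*. The order of the genes depended on the pseudocount. With 1 FPKM the rise was 1.31 for *Klrc2*, below the 1.65 of *Klrb1c*, and 0.34 for *Klri2*. At that pseudocount it was 1.825 for *Klrg1* and 0.99 for *Klra7*. With 0.01 FPKM it was 4.92 for *Klrc2*, 3.07 for *Klrb1c* and 2.27 for *Klri2*.

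Relative to *Cd8a*, the groups overlapped in 5 of the 6 shared receptors. The difference of the log2 ratio was 0.47 ± 0.29 for *Klrd1*, 0.34 ± 0.41 for *Klre1*, -0.07 ± 0.15 for *Klrc1*, -0.32 ± 0.16 for *Klrc2* and -0.53 ± 0.24 for *Klrg1* (± SE; exact permutation p = 0.2 to 0.7). These small differences depended on the pseudocount and on single tumors. With a pseudocount of 1 FPKM they were 0.24 for *Klrd1*, -0.61 for *Klre1*, -0.64 for *Klrc1*, -2.01 for *Klrc2* and -1.49 for *Klrg1*, and with 0.01 FPKM they were 0.51, 0.61, 0.042, 1.24 and -0.23 in that order. Without ACT + IL-2 replicate 2 the difference was 0.20 for *Klrd1*, -0.041 for *Klre1* and -0.18 for *Klrc1*, without replicate 3 it was 0.052 for *Klrc1*, and without replicate 1 it was 0.65 for *Klre1* and -0.19 for *Klrc2*. For *Klrc1* it was -0.012 without ACT + NKTR-214 replicate 2 and -0.13 without ACT + NKTR-214 replicate 3. *Klrk1* was the exception among the shared genes, since its ratio to *Cd8a* with that pseudocount, 0.547 to 0.565 in ACT + IL-2, was 0.370 to 0.433 in ACT + NKTR-214, a difference of -0.46 ± 0.07 in log2 without overlap (exact permutation p = 0.1). *Cd8a* itself rose 14.2-fold by the means, so a gene that rose clearly less falls in this ratio whatever cells express it. How many of all genes fell without overlap was not computed. The 4 NK-restricted receptors were lower relative to *Cd8a* in each ACT + NKTR-214 tumor than in any ACT + IL-2 tumor (exact permutation p = 0.1 each). The fall was smallest for *Klrb1c* (-0.85 ± 0.15, and -1.67 with a pseudocount of 1 FPKM) and largest for *Ncr1* (-3.65 ± 0.25), whose FPKM, with no pseudocount, was 0.170 to 0.235 of that of *Cd8a* in ACT + IL-2 and 0.0130 to 0.0243 of it in ACT + NKTR-214. None of these differences can pass 0.05 in the exact test used with 3 against 3 tumors, and an overlap does not show that a ratio was the same.

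**Figure D3:**
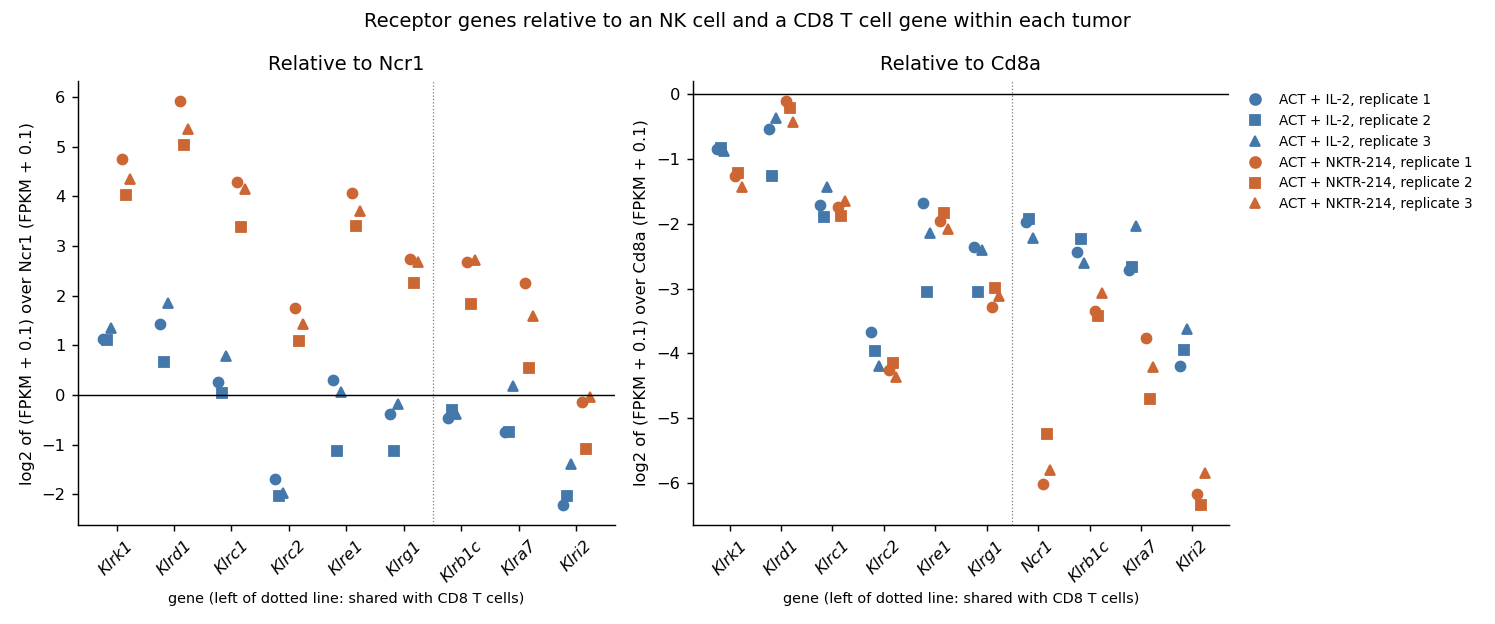
Log2 ratio of each receptor gene to *Ncr1* (left) and to *Cd8a* (right) within each tumor, with a pseudocount of 0.1 FPKM (color marks the group, symbol the replicate). All 9 ratios to *Ncr1* part the groups, and the ratios to *Cd8a* part them downward in the 4 NK-restricted genes and *Klrk1*.

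The makeup of the set moved with this. *Ncr1* held 6.91 to 12.1% of the summed FPKM of the 10 receptor genes in ACT + IL-2 and 0.581 to 1.11% in ACT + NKTR-214. *Klrd1* held 20.3 to 31.1% and 36.9 to 41.5%, in the same order. In the ranking by mean FPKM within each group, *Ncr1* was number 4 of 10 in ACT + IL-2 and number 9 in ACT + NKTR-214, while *Klrd1*, *Klrk1* and *Klrc1* were numbers 1, 2 and 3 in both. Within single tumors *Ncr1* was number 5, 4 and 6 with IL-2 and number 9 in each tumor with NKTR-214. The order of the top genes did not hold in every tumor, with *Klrk1* above *Klrd1* in ACT + IL-2 replicate 2 and *Klre1* above *Klrc1* in replicate 1 of that group and in replicate 2 of the other.

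Marker genes of the cell types that could carry these receptors were counted from lists, beside 20.7% called higher and 8.28% called lower over all genes tested. Of 6 T cell genes tested, 6 were higher, with a median log2 fold change of 3.38 (*Cd3g* 3.62, *Cd3e* 3.53 and *Lat*, an adaptor of the T cell receptor, 3.38), and their summed FPKM was 8.37 to 20.2 in ACT + IL-2 and 103 to 224 in ACT + NKTR-214. Both CD8 genes were higher (*Cd8b1* 3.44, *Cd8a* 3.38). Of 6 NK cell genes outside the receptor set, 4 were higher, and the median log2 fold change was 0.47. Of those 4, *Khdc1a* and *Sh2d1b2* reached the minimum level only through ACT + NKTR-214, with ACT + IL-2 means of 0.030 and 0 FPKM. The 3 with the largest changes were *Khdc1a* (0.63), *Adamts14* (0.59) and *Sh2d1b2* (0.52), the last listed at 0 in all 3 ACT + IL-2 tumors and at 0.403, 0.919 and 0.105 FPKM in ACT + NKTR-214, and no longer called with quantile normalization (limma adjusted p = 0.0608). The other 2, named after their values were seen, were *Itga2*, the integrin known as DX5, with 0.636 ± 0.159 and 0.699 ± 0.185 FPKM, and *Sh2d1b1*, an adaptor of NK cells, with 0.944 ± 0.988 and 1.30 ± 0.449 FPKM (SD, n = 3 each), and neither passed the test (limma adjusted p = 0.779 and 0.325). The summed FPKM of the NK list was 3.95 to 7.35 in ACT + IL-2 and 8.24 to 11.4 in ACT + NKTR-214, and *Adamts14* alone made up 2.83 to 4.12 and 5.61 to 6.41 FPKM of it.

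Of the other T cell lineages, *Cd4* rose from 0.758, 0.212 and 0.309 FPKM to 1.27, 1.38 and 0.952 FPKM (limma adjusted p = 0.00234), 1 of 3 genes called on its list, and *Foxp3*, the factor of regulatory T cells, had a mean of 2.21 FPKM in both groups (limma adjusted p = 0.996, and lower with quantile normalization, adjusted p = 0.0303). *Ikzf2*, a factor found in many regulatory T cells, had 1.37, 1.26 and 1.02 FPKM against 1.58, 1.34 and 1.62 FPKM (limma adjusted p = 0.307). Of the NKT and γδ T cell genes 2 of 6 were analysed here, and 0 were called (limma, unadjusted p = 0.0976 for *Zbtb16* and 0.0618 for *Sox13*). *Zbtb16*, the NKT cell factor, had 0.108 ± 0.0278 and 0.224 ± 0.0489 FPKM (SD, n = 3 each). It was higher without overlap, as were 27.1% of all genes tested. In the melanocyte list 3 of 5 genes fell (log2 fold change of -1.08 for *Tyrp1*, -0.90 for *Pmel* and -0.78 for *Tyr*), while *Dct*, at -0.82, did not pass (limma adjusted p = 0.0629). All 5 were called lower under both other scalings, and 1 was without ACT + IL-2 replicate 3, ACT + NKTR-214 replicate 1 or ACT + NKTR-214 replicate 2. The summed FPKM of that list was 5176 to 6627 in ACT + IL-2 and 2554 to 3615 in ACT + NKTR-214. The part of these markers in the receptor values was not tested.

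The family was then followed along the NK gene complex. Of the 17 further killer lectin-like receptor genes listed, 12 reached the level for testing. In ACT + NKTR-214, 6 of the 12 were higher and 0 were lower (limma, with 7 higher without overlap), with a median log2 fold change of 0.45. The shares over all genes tested were 20.7% called higher, 8.28% called lower and 27.1% higher without overlap. *Klra1*, *Klra5* and *Klrc3* reached the minimum only through ACT + NKTR-214. *Klra4*, which like *Klra1* was named after its values were seen, did not reach it. It had 0.086, 0.224 and 0.147 FPKM against 0.0415, 0.0421 and 0 FPKM. With quantile normalization *Klra3* and *Klri1*, named after their values were seen, were no longer called (limma adjusted p = 0.0616 and 0.0715). *Klra5*, the gene of the Ly49E receptor, rose most among them, from 0.109, 0 and 0 FPKM with IL-2 to 4.03, 5.36 and 3.06 FPKM with NKTR-214. Limma gave a log2 fold change of 2.29 ± 0.15 (SE) with an adjusted p of 5.82e-08. *Klrb1f*, of the NKR-P1 family, followed with 1.18 and *Klrc3*, another NKG2 gene, with 0.92. The 6 neighbors *Klre1*, *Klrd1*, *Klrk1*, *Klrc3*, *Klrc2* and *Klrc1* were all called. On the scale of FPKM + 1 they held 4 of the 5 largest log2 fold changes of the family. By mean FPKM, *Klra5* rose 114-fold and *Klra1* 30.1-fold, each more than any of the 6 neighbors. The ACT + IL-2 means of *Klra5* and *Klra1* were 0.0363 and 0.0087 FPKM.

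**Figure D4:**
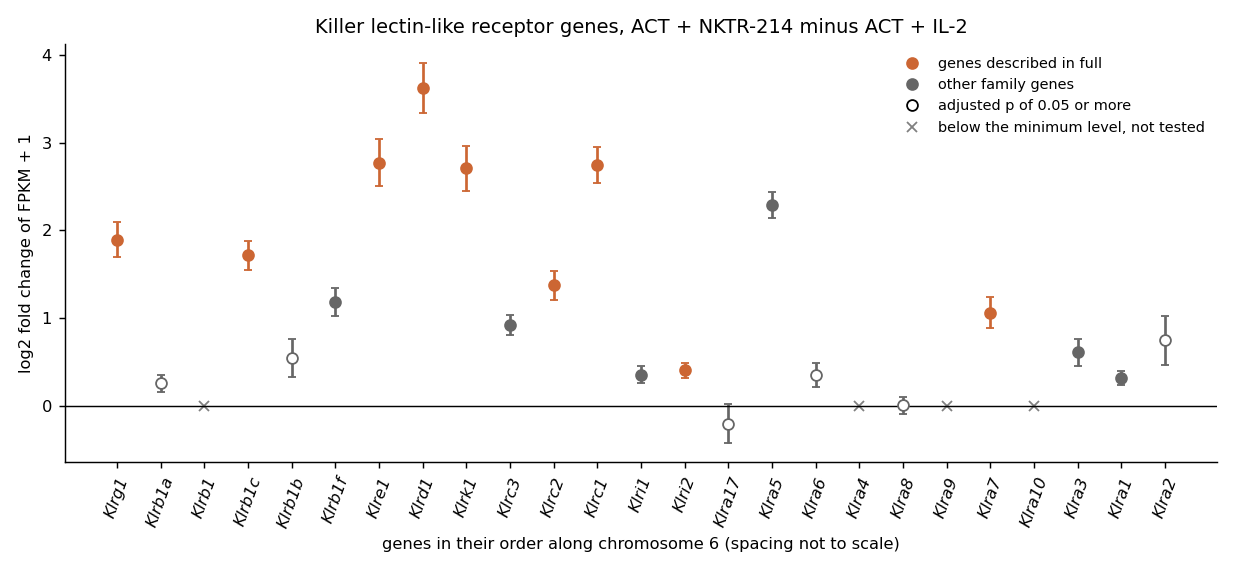
Log2 fold change of FPKM + 1 with its standard error (limma, 3 tumors per group) for 25 killer lectin-like receptor genes in their order along chromosome 6; spacing is not to scale and crosses mark genes under the minimum level. The 4 largest values on this scale, which understates low genes, lie between *Klre1* and *Klrc1*, with *Klra5* standing apart from its neighbors at 2.29.

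The receptors signal through separate adaptors, and 10 of 11 listed signaling partners were higher, with 0 lower in limma and a median log2 fold change of 1.65. The share called higher over all genes tested was 20.7%. *Zap70*, the kinase that acts behind the T cell receptor, had the largest, 3.04 (limma adjusted p = 8.97e-08). *Hcst*, which encodes DAP10, the adaptor that NKG2D needs at the surface, rose from 1.29 ± 0.869 to 12.6 ± 4.02 FPKM (SD, n = 3 each), 9.79-fold by the means, next to 10.8-fold for *Klrk1*. *Tyrobp*, the DAP12 adaptor of the activating Ly49 and NKG2C receptors, rose from 50.9 ± 25.3 to 189 ± 53.1 FPKM (SD, n = 3 each), or 1.94 in log2. Myeloid cells also express *Tyrobp*, and its level was far above that of any receptor gene in all 6 tumors.

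Among the ligands, 8 of 15 tested genes were higher and 1 was lower in limma, with a median log2 fold change of 0.85. The shares over all genes tested were 20.7% and 8.28%. The MHC class I gene *H2-K1*, whose product is bound by Ly49 receptors, had 555, 382 and 432 FPKM in ACT + IL-2 and 997, 1126 and 932 FPKM in ACT + NKTR-214 (log2 fold change 1.17, limma adjusted p = 0.00304). *Cfp*, which encodes the complement protein properdin, reported to bind NKp46, had the largest log2 fold change, 1.92, followed by *Clec2i*, a lectin-like ligand of the NKR-P1 family, with 1.36. The lower gene was *Cdh2*, N-cadherin, one of the cadherins that KLRG1 binds, with -0.53 in log2 (limma adjusted p = 0.0199). The other listed cadherin that KLRG1 binds, E-cadherin (*Cdh1*, named after its values were seen), was higher, with 0.718, 0.601 and 0.323 FPKM against 1.96, 2.31 and 1.82 FPKM (limma adjusted p = 3.76e-05). *H2-T23*, which encodes the Qa-1 molecule read by CD94 and NKG2, was named after its values were seen and had 76.1, 56.1 and 52.9 FPKM with IL-2 and 129, 144 and 135 FPKM with NKTR-214, without overlap (limma adjusted p = 0.000122). Of the 7 NKG2D ligands tested, named after their values were seen, 1 passed the test. *Ulbp1* rose from 1.69 ± 0.326 to 4.27 ± 1.22 FPKM (SD, n = 3 each, limma adjusted p = 0.000868), while *H60b* had 0.18 in log2 (limma adjusted p = 0.446, and -0.10 with quantile normalization) and the 5 *Raet1* genes, near-identical copies whose reads cannot be told apart with certainty, had log2 fold changes from -0.35 to -0.11 and limma adjusted p-values of 0.0766 or more. In *Raet1a*, *Raet1b* and *Raet1d* each ACT + NKTR-214 tumor was below every ACT + IL-2 tumor. With quantile normalization all 5 *Raet1* genes were called lower (-0.63 to -0.34), and with scaling to the 75th percentile *Raet1a* and *Raet1b* were.

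**Figure D5:**
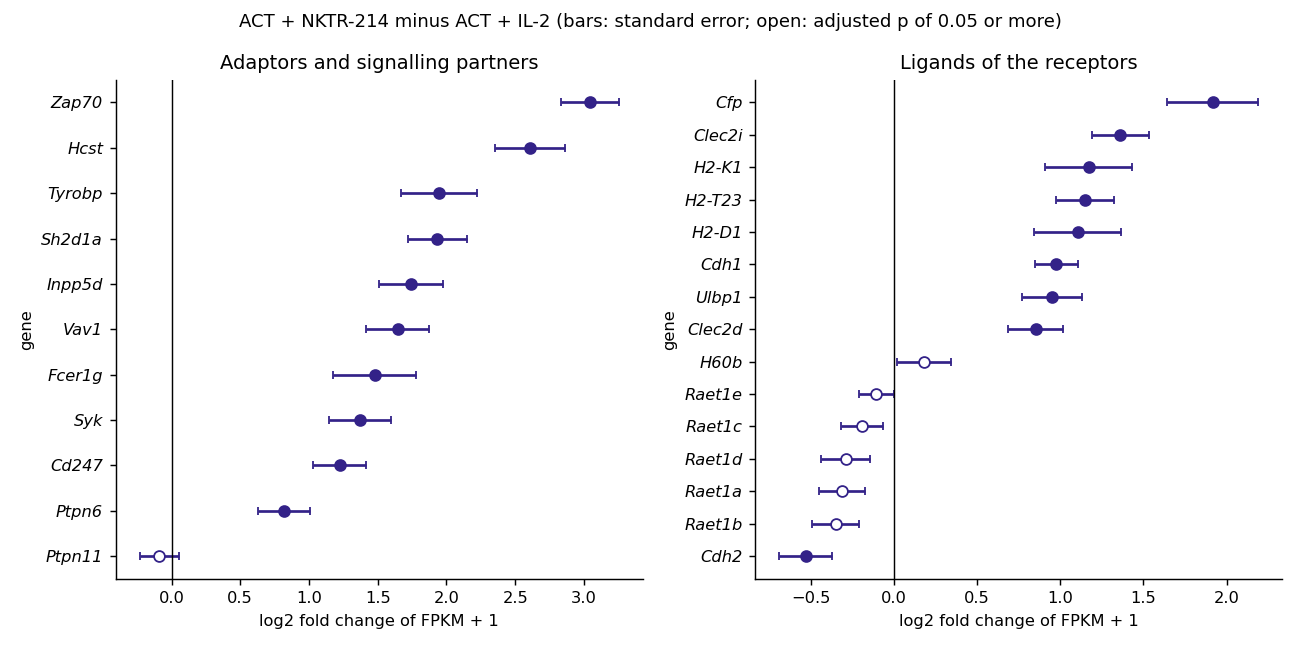
Log2 fold change of FPKM + 1 with its standard error (limma, 3 tumors per group) for the signaling partners (left) and the ligands (right) of the receptors; open symbols did not pass the adjusted threshold. Of the partners 10 of 11 are called higher, and among the ligands the *Raet1* genes lie left of 0 without passing and *Cdh2* is called lower.

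A list of other receptors found on NK cells, T cells or both, outside the lectin-like family, was higher in 9 of 9 tested genes (limma). The median log2 fold change was 2.02, and 20.7% of all genes tested were called higher. This list includes *Fcgr3*, named after its values were seen, an Fc receptor of NK and myeloid cells. *Fcgr3* rose from 27.2 ± 13.7 to 124 ± 24.7 FPKM (SD, n = 3 each). *Cd226*, the activating receptor DNAM-1, had 2.59, its inhibitory counterpart *Cd96* had 2.55 and the costimulatory receptor *Cd27* had 2.31, each within the range of the 6 shared lectin-like receptors (1.38 to 3.63).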

How the data were processed

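RNA of whole tumors was sequenced in 50-base single-end reads. The authors mapped the reads to GRCm38 with HISAT2 2.0.4 (per the submitters' processing notes), used HTSeq for counting and deposited linear FPKM values, with 1 column for each tumor. The annotation and the handling of reads that map to several genes are not given in the sources used here. All 6 columns were used, and 0 further columns were left out. Values were taken as log2(FPKM + 1), and the 14172 genes that averaged 0.1 FPKM or more were fitted with limma 3.58.1 in R 4.3.3, using trended eBayes, Benjamini-Hochberg adjustment over all of them and no block. The fit was tested on simulated data, where, among 14172 genes, it recovered 93 of 112 genes changed by 1 and 88 of 88 changed by 2 on the log2 scale and called 9 unchanged ones. Changes were planted only in genes with a mean log2(FPKM + 1) above 1, with independent noise and variances shuffled over genes. The rates were thus not measured for lower genes such as *Ncr1*, or for tumors whose genes vary together. Each library is the tumor of 1 mouse.

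Reads per library were inferred from the steps of FPKM times exon length at low values. The fewest whole reads behind a value were found, to within 0.05 of a read, for the genes with 5 or more low values, and such numbers cover counting error only. Windows of 50 bases and positions come from GENCODE vM21. Within-tumor ratios used exact permutation tests in scipy 1.17.1. The receptor genes, classes and lists were chosen with earlier results of these data known; all 10 receptors are named, and of each list the 3 genes with the largest change, every gene called lower, and *Cd3e*, *Cd8a* and *Cd4*. Motifs, the ratios of mean FPKM without each tumor and the melanocyte counts under each setting were chosen after the values were seen. Alternatives were another pseudocount, minimum level, scaling, variance estimate, a replicate block and each tumor left out.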

Additional observations from a re-analysis of the deposited data

How the results depend on the processing

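Of the receptor genes, 9 were called higher under both scalings, at a pseudocount of 0.1, with no minimum, without the trend and in each fit that left out 1 tumor. With a minimum mean of 1 FPKM, 7 were called, since *Ncr1*, *Klrc2* and *Klri2* were then not tested. Of the 7, only *Klrk1* and *Klrd1* averaged 1 FPKM or more in ACT + IL-2. With each gene's own variance in limma, 0 receptor genes (9 at an unadjusted p under 0.05), 101 genes of the whole table and 1 gene of the other lists were called higher, and 27 of the whole table and 0 of the other lists were called lower. The median log2 fold change of the shared and the NK-restricted receptors was 3.59 and 1.81 with a pseudocount of 0.1, and that of the 2 NK-restricted genes left at a minimum of 1 FPKM was 1.39. These 2 pass that minimum only through ACT + NKTR-214 and *Ncr1* is dropped, so 1.39 is no like value for the class. With each tumor left out the medians of all genes in each class ran from 2.51 to 3.03 (shared) and from 0.59 to 0.87 (NK-restricted). Scaling to the 75th percentile and quantile normalization raised the genes called lower from 1173 to 3709 and 4549, and those of the other lists from 4 to 8 and 12, and shifted the median of all genes to -0.03 and -0.10. With each tumor left out, 635 (without ACT + IL-2 replicate 3) to 2003 genes (without ACT + IL-2 replicate 2), against 1173, and 1 (without ACT + IL-2 replicate 3 or ACT + NKTR-214 replicate 1) to 6 genes of the other lists, against 4, were called lower. Without ACT + NKTR-214 replicate 2, 682 genes were called lower, 2 of them in the other lists.

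The log2 fold change of *Ncr1* reversed to -0.16 with quantile normalization, to -0.07 without ACT + IL-2 replicate 3 and to -0.13 without ACT + NKTR-214 replicate 2 (range with 1 tumor left out, -0.13 to 0.23), and passed no threshold in any of them. Of the ratios to *Cd8a*, that of *Klrc1* turned to 0.042 with a pseudocount of 0.01 and to 0.052 without ACT + IL-2 replicate 3 (range -0.18 to 0.052), that of *Klrc2* to 1.24 with a pseudocount of 0.01, and that of *Klre1* to -0.61 with a pseudocount of 1 and to -0.041 without ACT + IL-2 replicate 2 (range -0.041 to 0.65). The causes were not tested. The other 176 of 181 alternative values of the ratios kept their sign, though not the order of the genes. Many of them could not have turned. The replicate block repeats the main difference by construction, and leaving out 1 tumor cannot reverse groups that do not overlap. Of the melanocyte genes, 1 to 5 were called lower in the fits that share variance across genes, with all 5 log2 fold changes below 0 in each.

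Replicate numbers were not taken as pairs, since each library is the tumor of a different mouse. The deviations of same-numbered tumors correlated with r = -0.21, -0.07 and 0.40 for numbers 1, 2 and 3. Replicate 1 of ACT + IL-2 correlated best with replicate 2 of the other group. Deviations within a group of 3 tumors constrain each other, so these values cannot exclude a shared batch. With a replicate block, 9 receptor genes were called higher, with 3090 genes higher and 1227 lower over the whole table.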
